A study of Macaca mulatta with 2 samples.

Results

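The granzyme genes in the data were *GZMA*, *GZMB*, *GZMK* and *GZMM*, which were taken by name and made up 4 of the 35432 genes counted. Granzymes are serine proteases that T cells and natural killer cells store in cytotoxic granules and release with perforin, the pore-forming protein that lets them enter a target cell. *GZMB* encodes the enzyme that cleaves after aspartic acid and activates caspases. *GZMA* and *GZMK* encode the tryptases, which cleave after basic residues, and *GZMM* encodes the enzyme that cleaves after methionine.

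The cells were circulating T cells sorted as carrying both CD4 and CD8 (double positive, DP), from the blood of 1 untreated rhesus monkey aged 6 years. They were taken with releasable CD4 beads and then with CD8 beads, and a 5′ gene expression library and a surface tag library for CD4 and CD8 were made from the same cells. The data are 1 sample from 1 animal, so no difference was tested, and every interval given covers counting error only, not the spread between animals or cells.

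The data held 7601 cells with a median of 3636 UMIs (unique molecular identifiers, 1 per captured transcript) and 1282 genes. Of these, 7445 were T cells by at least 1 UMI of *CD3D*, *CD3E* or *CD3G*, and 86 cells without CD3 but with B cell genes served as the background. By tag, 3624 of the T cells (48.7%) lay above the level that 90% of those B gene cells stayed under for both CD4 and CD8. T cells were gated by at least 1 UMI of exactly 1 of 5 genes, which gave 1136 CX3CR1-gated, 183 EOMES-gated, 158 TRAV10-gated, 1750 CCR7-gated and 251 CCR9-gated cells. A further 525 cells had UMIs of several gate genes and 3442 had none of them. The median CD8 tag was 293 UMIs in EOMES-gated and 323.5 in CX3CR1-gated cells, under the B gene cells' level of 330.5. It was 430.5 in TRAV10-gated, 359 in CCR7-gated and 426 in CCR9-gated cells. *CX3CR1* encodes the fractalkine receptor of effector cells, *EOMES* a T-box transcription factor, *TRAV10* a T cell receptor segment used by invariant natural killer T cells, *CCR7* the lymph node homing receptor of naive and central memory cells, and *CCR9* the gut homing receptor. Median depth was 3319.5 UMIs in CX3CR1-gated, 3413 in EOMES-gated, 3653.5 in TRAV10-gated, 4298.5 in CCR7-gated and 4589 in CCR9-gated cells, so shares of cells with a UMI are also given after each cell was thinned to 2000 UMIs. Absence of a gate gene's UMI does not show that a cell lacks its transcript.

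In the RefSeq annotation of Mmul_10, the build the submitters' notes also name, *GZMK* (chr6:53329124-53338866, plus strand) lay 62.6 kb before *GZMA* (chr6:53401482-53408723, plus strand). *GZMB* lay at chr7:86703929-86707259 on the minus strand and *GZMM* at chr19:305414-311844 on the plus strand, and each gene had 1 transcript of 5 exons. The same annotation places *GZMH*, another granzyme gene, 26.9 kb from *GZMB* on the same strand, and how alike their sequences are was not measured. No counted feature carried the name *GZMH*, so *GZMH* was not analysed here and *GZMB* values are uncertain to the extent that the 2 genes share reads. The start region of *GZMB*, the gene with the largest pool of UMIs among the granzymes, is printed. It runs 5′ to 3′ along the gene from 250 bases before the annotated start to 10 after it, with capitals marking GGTGTGA, a core of T-box sites, and TGTGGT, a core of RUNX sites, on either strand.
GZMB, Mmul_10 chr7:86707250-86707509, minus strand: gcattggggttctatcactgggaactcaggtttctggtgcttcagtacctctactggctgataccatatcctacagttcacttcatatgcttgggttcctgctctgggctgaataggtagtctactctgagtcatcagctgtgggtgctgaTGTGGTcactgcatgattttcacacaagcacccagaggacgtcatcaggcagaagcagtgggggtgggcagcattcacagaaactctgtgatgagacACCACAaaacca
The *GZMB* region held the RUNX core at 99 bases before the start and, on the other strand, at 2 bases before it, and no T-box core. Searched from 250 bases before to 50 after the start, *GZMM* held the T-box core at 43 bases after the start and *GZMA* the RUNX core at 52 bases before it on the other strand. Of 20782 such regions of the annotation, 4.24% held the T-box core and 13.0% the RUNX core. A match is a description of these letters, not a binding site.

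*GZMB* was highest in CX3CR1-gated cells, of which 97.4% had at least 1 UMI and which held 15825 UMIs, 3807 per 1000000 UMIs (CPM; exact Poisson interval 3748 to 3867). The middle cell there had 12 UMIs, with quartiles of 7 and 19, and 63.4% of the cells had 10 or more. Nearly every CX3CR1-gated cell thus carried *GZMB*, and after thinning the share was still 96.7%. Cells with no gate gene had 1393 CPM, TRAV10-gated 900.0, EOMES-gated 880.2, cells with several gate genes 708, CCR7-gated 126 and CCR9-gated 111. TRAV10-gated and EOMES-gated cells, next to each other in this order, did not differ beyond counting error, nor did CCR7-gated and CCR9-gated cells. The CCR9-gated value was 32.0 CPM without its 5 highest cells, and without the cells scored highest for doublets the last 2 gates did differ, at 61.9 (56.4 to 67.7) and 23.6 (15.7 to 34.1) CPM. The granzymes were among the genes given to that score, so leaving out high scores can itself lower *GZMB* in these gates. Without their 5 highest cells, which held 27.4% and 18.9% of the *GZMB* UMIs, TRAV10-gated cells had 686 CPM and EOMES-gated cells 737. Roughly equal parts of the TRAV10-gated and EOMES-gated cells had and lacked a *GZMB* UMI, 49.4% and 48.1% having one. In CCR7-gated cells the share was 8.17%, and in CCR9-gated cells 7.57%, against 8.14% of the B gene cells, whose median depth was 4121.5 UMIs. Those B gene cells reached 663 CPM through 2 cells with 147 and 111 UMIs. The other 84 had 13.4 CPM, with a single UMI in 5 cells (5.95%, 1.96 to 13.3). The share of CCR7-gated and CCR9-gated cells with a UMI therefore lay within the interval of this background, whereas their CPM lay above it, and 3.77% and 3.19% of them had 5 or more UMIs. The background cells were chosen to have no CD3 UMI, which leaves out B cells that also carry CD3 RNA from T cells. The background can thus be too low for *GZMB* RNA from other cells.

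The pool of *GZMB* transcripts lay mostly in 2 sets. CX3CR1-gated cells, 15.3% of the T cells, held 41.9% of all 37756 T cell *GZMB* UMIs, and cells with no gate gene, 46.2% of the T cells, held 46.3%. Cells with no gate gene split widely, with 770 cells at 10 or more *GZMB* UMIs, 928 at 1 to 9 and 1744 at 0, a division chosen after the values were seen. Those 770 cells had 2171 CPM of *NKG7*, a granule membrane protein, and 61.9 CPM of *TBX21*, which encodes T-bet, close to 2306 and 76.1 CPM in CX3CR1-gated cells with as many *GZMB* UMIs. The 1744 cells without *GZMB* had 255 and 9.90 CPM.

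*GZMK* followed another order and was highest in EOMES-gated cells, with 1138 UMIs, 1672 CPM (1577 to 1772). Of these cells 80.3% had a UMI, 72.8% after thinning, and 26.8% had 10 or more. The next set was cells with several gate genes at 520.2 CPM, followed by TRAV10-gated at 280.2, no gate gene at 232, CX3CR1-gated at 159, CCR7-gated at 139.6 and CCR9-gated at 69.2. Of the cells with several gate genes 14.1% were among those scored highest for doublets, and without these the set had 577 CPM. Among the cells with several gate genes, the 138 with both *EOMES* and *CCR7* held 1175 of the 1552 *GZMK* UMIs. They had 1737 CPM, and 84.8% of them had a UMI, so the CCR7-gated value leaves out *CCR7* cells with high *GZMK*. The share of cells with a UMI was 34.8% in TRAV10-gated, 19.3% in CX3CR1-gated, 8.74% in CCR7-gated and 3.59% in CCR9-gated cells, with 1 UMI in the 86 B gene cells (1.16%). EOMES-gated cells held 14.8% of the T cells' *GZMK* UMIs with 2.23% of their RNA, while the 3442 cells with no gate gene held 38.0%. The CCR9-gated value rested on few cells, since 2 of them held 43 and 24 of the 87 UMIs and the level without the 5 highest cells was 4.90 CPM.

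*GZMM*, the enzyme that cleaves after methionine, was highest in EOMES-gated cells and lower in CCR7- and CCR9-gated cells than in the other sets of T cells. EOMES-gated cells had 263 CPM (226 to 305), CX3CR1-gated 178 (166 to 192), TRAV10-gated 168 (138 to 204), cells with several gate genes 120 and with none 115. CX3CR1-gated and TRAV10-gated cells did not differ beyond counting error. The share with a UMI was 54.1%, 41.3% and 41.8% in EOMES-gated, CX3CR1-gated and TRAV10-gated cells. CCR7-gated cells had 31.2 CPM and CCR9-gated cells 10.3 CPM from 13 UMIs, and 0 of the 86 B gene cells had a UMI, which by a limit of 3 counts allows a share of cells with a UMI, not of expressing cells, of up to 3.49%.

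*GZMA*, as counted under its name, had few UMIs, with 38 UMIs in 32 of the 7445 T cells, 29 of which had a single UMI. EOMES-gated cells had 6 UMIs in 6 cells (8.82 CPM, 3.24 to 19.2), CX3CR1-gated 8 UMIs in 7 cells (1.92 CPM), CCR7-gated 1 UMI and CCR9-gated 7 UMIs in 3 cells, 5 of them in 1 cell. In TRAV10-gated cells 0 of 158 had a UMI, which by the limit of 3 counts allows a share of cells with a UMI of up to 1.90%. Against all other T cells, *GZMA* was higher by a log2 of 3.04 (1.49 to 4.32) in EOMES-gated and 2.39 (0.96 to 3.60) in CCR9-gated cells, beyond counting error but from 6 and 7 UMIs, and with 0.76 (-0.58 to 1.91) in CX3CR1-gated cells it could not be told from the others. Among cells above both tag levels the EOMES-gated difference was 2.06, with an interval that reached down to -3.33. Neighbours in the order from EOMES-gated cells down to cells with no gate gene did not differ beyond counting error. It was not settled whether the authors' annotation counted *GZMA* transcripts under another feature, so 38 UMIs are those of the feature with this name. Of the 32 cells, 28 had *GZMB*, 22 *GZMK* and 10 *GZMM*, with 1919 CPM of *GZMB* and 1622 CPM of *GZMK*. With under 50 UMIs, *GZMA* is left out of the counts of granzymes that follow unless it is named.

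**Figure D1:**
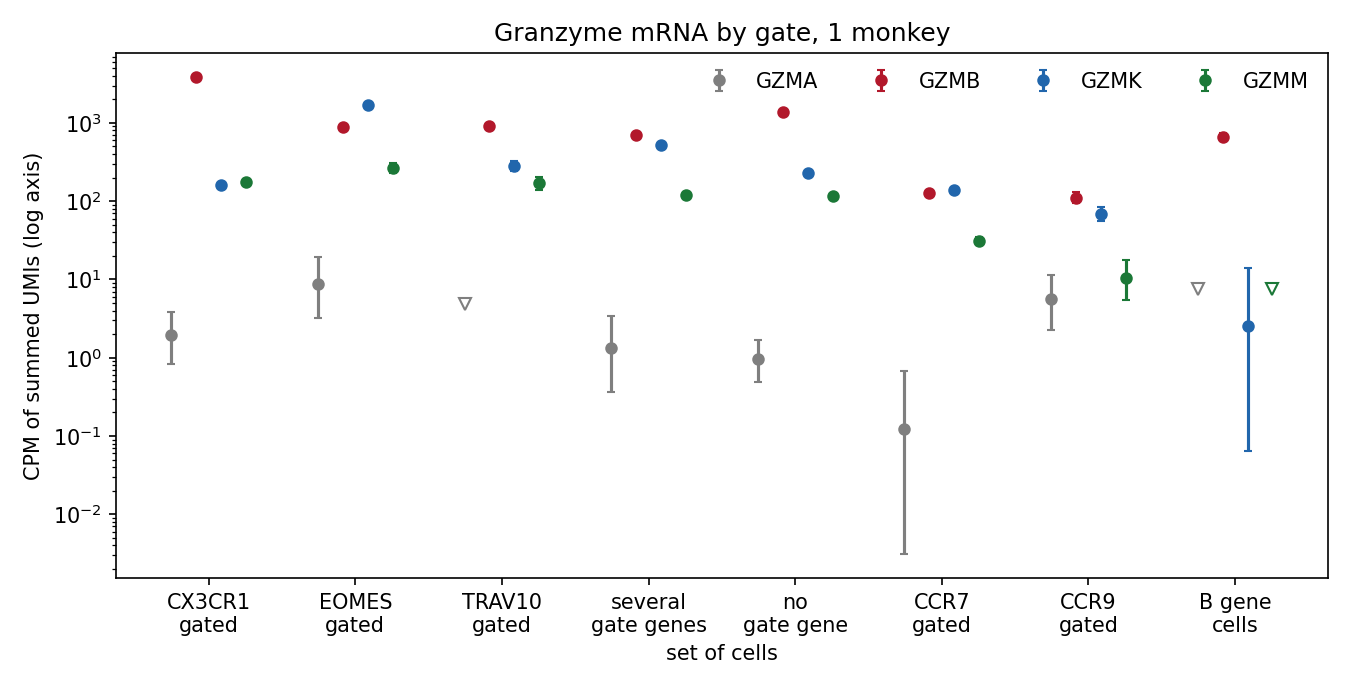
Levels of the 4 granzyme genes in CPM of summed UMIs (log axis) in each gate, in T cells with several or no gate genes and in the B gene cells. Points are sums over cells with exact Poisson intervals, and open triangles mark sets with 0 UMIs, drawn at the level that 3 UMIs would give. *GZMB* peaked in CX3CR1-gated cells at 3807 CPM and *GZMK* in EOMES-gated cells at 1672 CPM.

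Each gate was next set against all other T cells, on the log2 scale with its exact binomial interval. *GZMB* was higher in CX3CR1-gated cells by 2.19 (2.16 to 2.22), a fold of 4.57, and *GZMK* in EOMES-gated cells by 2.93 (2.84 to 3.02), a fold of 7.63. *GZMM* was higher by 0.996 (0.87 to 1.12) in CX3CR1-gated, 1.43 (1.20 to 1.65) in EOMES-gated and 0.75 (0.45 to 1.03) in TRAV10-gated cells. *GZMK* differed in the opposite direction to *GZMB* in CX3CR1-gated cells, with a log2 difference of -0.75, and *GZMB* was lower in EOMES-gated cells, at -0.50. In TRAV10-gated cells *GZMK* could not be told from the other T cells, with 0.16 (-0.07 to 0.37), and *GZMB* was lower, with -0.47, although the difference was -0.036 among the cells above both tag levels. For both of these gates the other T cells include the CX3CR1-gated cells, which held 41.9% of the *GZMB* UMIs. A *GZMB* UMI was found in 48.1% of EOMES-gated and 49.4% of TRAV10-gated cells, against 44.6% of all T cells. The EOMES gate leaves out cells with a second gate gene. Of the 138 cells with *EOMES* and *CCR7* 22.5% had a *GZMB* UMI (488 CPM), and of the 41 with *EOMES* and *CX3CR1* 100%. Cells with no gate gene, at 1393 CPM, lay above the EOMES-gated and TRAV10-gated cells. All 3 genes were lower in CCR7-gated cells, by log2 differences of -3.71 for *GZMB*, -1.07 for *GZMK* and -2.03 for *GZMM*, and in CCR9-gated cells, by -3.53, -1.91 and -3.35.

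Over the 10067 genes with 50 or more UMIs in T cells, a difference of 2-fold or more after adding 10 CPM to both levels was used to read these values against the background. In CX3CR1-gated cells 1.18% of the genes were higher and 1.29% lower by this rule, and of the 3 granzymes *GZMB* was higher, with *GZMM* just inside at a log2 difference of 0.92. In EOMES-gated cells 0.348% of genes were higher and 0.526% lower, and *GZMK* and *GZMM* were higher. In TRAV10-gated cells 0.328% were higher and 0.904% lower, and no granzyme passed. In CCR7-gated cells 0.298% were higher and 1.52% lower, with all 3 granzymes among the lower, as they were in CCR9-gated cells, where 0.288% were higher and 1.3% lower. The median log2 difference of the 3 granzymes was 0.92, 1.34, 0.15, -1.74 and -2.50 in CX3CR1-, EOMES-, TRAV10-, CCR7- and CCR9-gated cells, against 0.10, 0.00, -0.03, -0.10 and -0.05 over the 10067 genes.

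Other components of the cytotoxic granule differed along with the granzymes in part. Of 17 such genes tested, 4 were at least 2-fold higher in CX3CR1-gated cells by the same rule, with 10 CPM added to both levels: *PRF1*, which encodes perforin (179 against 55.1 CPM), *NKG7* (2108 against 647), *CST7*, an inhibitor of the proteases that process progranzymes (1162 against 379), and *SERPINB9*, the inhibitor of granzyme B (169 against 72.4). EOMES-gated cells had 2 different genes higher, *GNLY*, which encodes the antimicrobial granulysin (917 against 366 CPM), and the cathepsin gene *CTSW* (364 against 97.9), and TRAV10-gated cells had *CTSW* alone (218 against 102). In CCR7-gated cells 7 of the 17 were lower, among them *PRF1*, *NKG7*, *GNLY* and *RAB27A*, which encodes a GTPase of granule release. In CCR9-gated cells 6 were lower, including *LYST*, a gene of lysosome trafficking. The list's median log2 difference was 0.69, 0.28, 0.22, -0.84 and -0.60 in the same order of gates. In plain CPM, *FASLG* (14.4 against 3.46) and *SERPINB1* (100 against 47.0) were also more than 2-fold higher in CX3CR1-gated cells. Some genes in other gates, such as *FASLG* in CCR7-gated cells (0.851 against 6.47), likewise passed only without the added 10 CPM.

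Of 11 transcriptional regulators tested by the same rule with 10 CPM added, CX3CR1-gated cells had 4 higher, *TBX21*, *RUNX3*, *HOPX* and *ZEB2*, all regulators of effector T cells, and 3 lower, *TCF7* and *LEF1* of naive and memory T cells and *EOMES*, which was low through the gating itself. By this rule EOMES-gated cells had only *EOMES* itself higher and *LEF1* lower, and TRAV10-gated cells had *LEF1* and, by gating, *EOMES* lower. In CCR7-gated cells *TCF7* and *LEF1* were higher and 6 regulators lower (*TBX21*, *RUNX3*, *PRDM1*, *HOPX*, *ZEB2* and, by gating, *EOMES*), and in CCR9-gated cells 4 were lower (*TBX21*, *RUNX3*, *ZEB2* and, by gating, *EOMES*). Further regulators passed 2-fold without the added 10 CPM. Among them, log2 differences in CX3CR1-gated cells were 1.09 for *PRDM1*, -2.57 for *BACH2* and -1.80 for *IKZF2*. *BACH2* had 1.81 in CCR7-gated cells, and *TBX21* -1.07 (-2.21 to -0.14) in EOMES-gated cells.

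Markers of natural killer cells, which also express granzymes, were followed in the same gates. Of *KLRF1*, *NCR1*, *NCAM1* and *FCGR3*, CX3CR1-gated cells had 767 UMIs of *KLRF1*, a receptor that effector T cells can also express, and 0 of the other 3. EOMES-gated cells had 79 UMIs of *KLRF1* and 8 of *NCR1*, and 0 of the other 2. The list summed to 184.5 CPM in CX3CR1-gated, 128 in EOMES-gated, 127 in TRAV10-gated, 7.42 in CCR7-gated and 9.54 in CCR9-gated cells, while *CD3E* stayed between 1251 and 1577 CPM in all 5. Its part in the granzyme differences was not tested.

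The levels also moved with the number of UMIs of each gate gene, taking all T cells. *GZMB* was 796 CPM in the 6160 cells with 0 *CX3CR1* UMIs, 3118 in the 848 with 1, 3821 with 2, 3781 with 3 and 4626 with 4 or more. The large step lay between 0 and 1 UMI, and *GZMK* went the other way, with 265 CPM at 0 and 64.5 at 4 or more. *GZMK* was 178 CPM at 0 *EOMES* UMIs, 1546 at 1, 1841 at 2 and 1711 at 3 or more, while *GZMB* had 1259 CPM at 0 and 961 at 3 or more. *GZMK* beyond the first *EOMES* UMI thus showed no further step of like size. With *CCR7*, *GZMB* was 1797 CPM at 0 UMIs and 229 at 1, and *GZMK* was 264 and 215, so that the difference was much smaller for *GZMK*. With *TRAV10*, *GZMB* was 1251 CPM at 0 UMIs and 791 at 1, and with *CCR9* 1341 and 225.

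Cells with both *CX3CR1* and *EOMES* were few. The 41 cells had 2265 CPM of *GZMB*, 939 of *GZMK* and 240.2 of *GZMM*, and 100% of them had a *GZMB* UMI and 73.2% a *GZMK* UMI, at a median depth of 5481 UMIs. The 1244 cells with *CX3CR1* and no *EOMES* had 3462 CPM of *GZMB* and 149 of *GZMK*, and the 322 with *EOMES* and no *CX3CR1* had 627 and 1737. Both genes in the cells with both therefore lay between the levels of the cells with either gate gene alone. Of the 41 cells 7 (17.1%) were among the highest doublet scores, against 7.64% and 7.45% of the cells with *CX3CR1* or *EOMES* alone, and the 34 others had 2603 CPM of *GZMB* and 1030.3 of *GZMK*. The part of doublets was not tested. Among cells with *TRAV10*, the 31 that also had *CX3CR1* had 2265 CPM of *GZMB* and 113 of *GZMK*, and the 217 without it had 661 and 303.

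**Figure D2:**
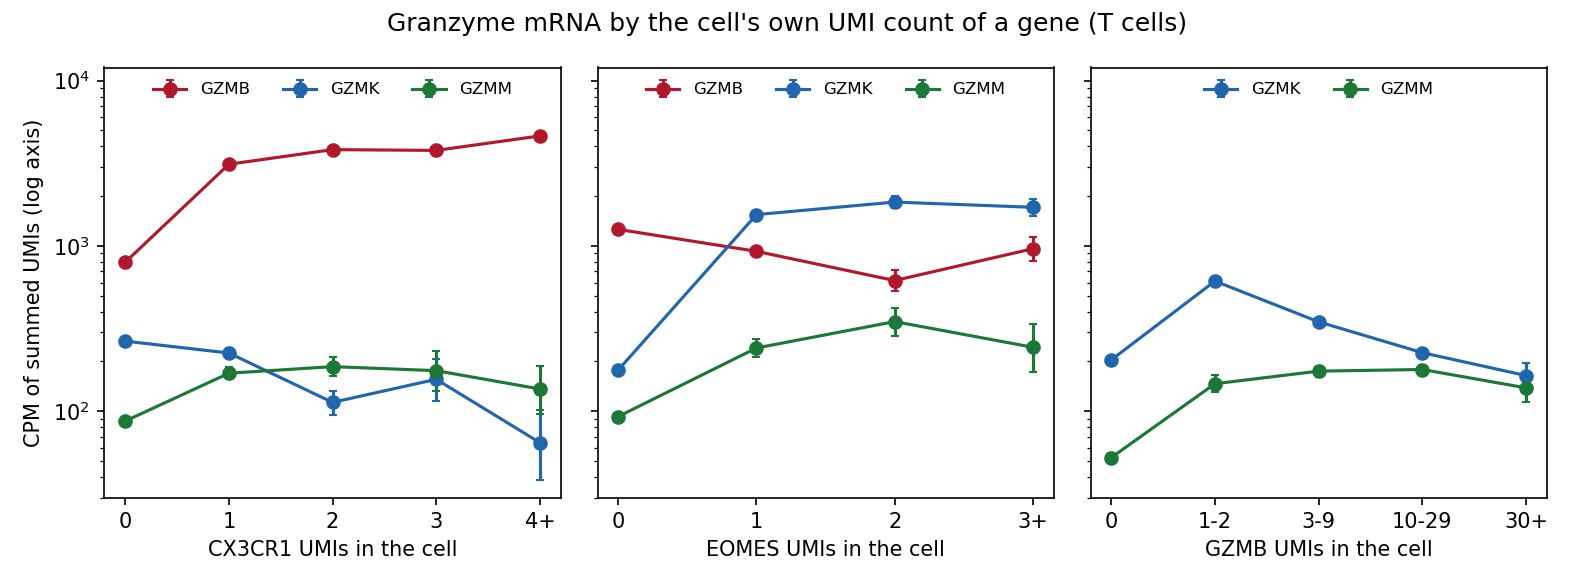
*GZMB*, *GZMK* and *GZMM* levels in CPM of summed UMIs (log axis) in T cells binned by the UMIs of *CX3CR1*, *EOMES* or *GZMB* in the cell, with exact Poisson intervals. *GZMB* stepped from 796 to 3118 CPM at the first *CX3CR1* UMI and *GZMK* from 178 to 1546 CPM at the first *EOMES* UMI, while *GZMK* peaked at 612 CPM in cells with 1 or 2 *GZMB* UMIs.

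Read by the granzymes themselves, *GZMB* and *GZMK* had no simple relation. *GZMK* was 204 CPM in the 4122 T cells with 0 *GZMB* UMIs, 612 in the 514 with 1 or 2, 347 with 3 to 9, 226 with 10 to 29 and 164 in the 145 with 30 or more. *GZMK* was thus highest among cells low but not negative for *GZMB*, while *CX3CR1* went from 2.76 CPM at 0 *GZMB* UMIs to 230.2 CPM at 30 or more. By *GZMK*, *EOMES* was 3.53 CPM in the 6007 cells with 0 UMIs, 29.3 with 1 or 2, 55.9 with 3 to 5 and 134 in the 499 with 6 or more. *GZMB* was 1179, 1864, 1291 and 1177 CPM over the same bins. *GZMM* was higher in every bin with *GZMK* than without it, at 72.5, 189.9, 196 and 285 CPM.

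Detection in the same cell was read in the 7011 T cells with at least 2000 UMIs, thinned to 2000, against the number of cells that the product of the 2 genes' shares gives. *GZMB* and *GZMK* met in 619 cells against 471 from the product, a log2 ratio of 0.39 (0.28 to 0.50), and 55.0% of *GZMK* cells had *GZMB* whereas 21.1% of *GZMB* cells had *GZMK*. *GZMB* and *GZMM* met in 799 cells against 495, a log2 ratio of 0.69 (0.59 to 0.78), and *GZMK* and *GZMM* in 417 against 190, 1.14 (0.999 to 1.27). The ratio of *GZMK* and *GZMM* was the highest among these 3. A ratio cannot exceed the inverse of the larger share. *GZMB* was in 41.9% of these cells, against 16.0% for *GZMK* and 16.9% for *GZMM*. The pairs with *GZMB* thus had less room above the product, and the ratios do not rank how closely the pairs are shared. *GZMA* met *GZMB* in 8 cells against 5.03 and *GZMK* in 9 against 1.93. The excess for *GZMB* and *GZMK* depended on single UMIs, because with at least 2 UMIs of each gene required the log2 ratio was 0.11 (-0.06 to 0.27).

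Inside the gates, the ratio could be read only where neither gene was in nearly every cell. In CX3CR1-gated cells *GZMB* was in 96.7% of thinned cells, so that its ratios there, 0.987 with *GZMK* and 1.002 with *GZMM*, were held near 1 by the measure itself. In EOMES-gated cells *GZMB* and *GZMK* met in 57 cells against 54.6, a log2 ratio of 0.06 (-0.28 to 0.36). Cells with no gate gene had a ratio of 1.32, and CCR7-gated cells 3.49, from 25 cells against 7.16. *GZMB* with *GZMM* had ratios of 1.01 and 4.02 in EOMES- and CCR7-gated cells, and *GZMK* with *GZMM* had 1.27, 1.17 and 6.99 in CX3CR1-, EOMES- and CCR7-gated cells. In EOMES-gated thinned cells *GZMK* was in 72.8% and *GZMB* in 43.4%, against 6.82% and 6.22% in CCR7-gated cells. The ratio has a lower upper limit where the larger share is high, so the ratios of these gates cannot be set against each other. Summed over the 7 sets, the ratios were 1.18 for *GZMB* with *GZMK*, 1.23 for *GZMB* with *GZMM* and 1.77 for *GZMK* with *GZMM*. Each lay above 1 but below its value over all T cells. CX3CR1-gated cells gave 149 of the 525 cells from the products for *GZMB* with *GZMK*, and 287 of 647 for *GZMB* with *GZMM*. The summed ratios of the pairs with *GZMB* were thus in part held near 1 by the measure.

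As combinations in thinned cells, CX3CR1-gated cells had *GZMB* alone in 61.1%, *GZMB* with *GZMM* in 22.0%, *GZMB* with *GZMK* in 8.84% and all 3 in 4.84%. EOMES-gated cells were mixed, with *GZMK* alone in 23.1%, *GZMB* with *GZMK* in 17.3%, *GZMK* with *GZMM* in 16.8%, all 3 in 15.6% and none in 12.1%. TRAV10-gated cells had none in 32.5%, *GZMB* alone in 22.5% and *GZMK* alone in 13.2%. No granzyme was detected in 86.7% of CCR7-gated and 92.6% of CCR9-gated cells, against 93.7% of the B gene cells and 48.3% of all T cells.

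**Figure D3:**
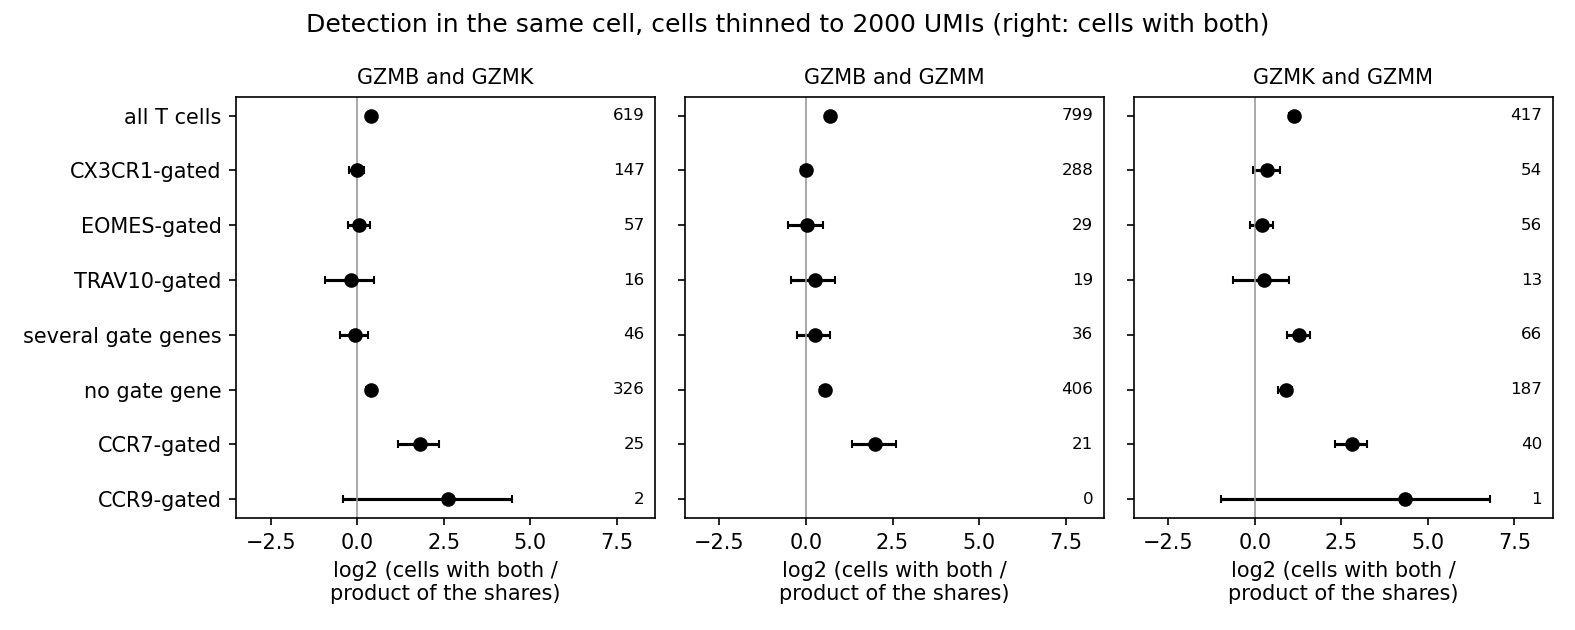
Detection of 2 granzymes in the same cell, as the log2 ratio of cells with both to the number from the product of the shares, in T cells thinned to 2000 UMIs. The bars are exact binomial intervals of the share with both, and the number with both stands at the right. CCR7-gated cells lay above 0 for all 3 pairs, and in CX3CR1-gated cells, where 96.7% had *GZMB*, the pairs with *GZMB* could not lie far above 0. The upper limit of the ratio is lower where the larger share is high, so it differs between sets. CCR9-gated cells had 2, 0 and 1 cells with both.

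The few CCR7-gated and CCR9-gated cells with granzymes were more often among the cells with high doublet scores, which estimate how closely a cell resembles a simulated mixture of 2 cells. The scores were computed from the kept genes with the granzymes and gate genes included. A single cell with *CCR7* or *CCR9* and granzymes can thus also score high, and the score cannot tell it from a doublet. Of the 1750 CCR7-gated cells 313 (17.9%) had a UMI of any granzyme, and 22.0% of those were among the 5% of cells with the highest scores, against 1.25% of the 1437 without one. In CCR9-gated cells the shares were 29.03% of 31 and 0.455% of 220. The 313 cells had 545 CPM of *NKG7*, 346 of *CST7* and 174 of the chemokine gene *CCL5*, against 41.8, 21.7 and 9.07 in the 1437, and *LEF1* was 136 against 231. *CCR7* itself was 374 against 439.7 CPM. Leaving out the cells with the highest scores, *GZMB* was 61.9 CPM in CCR7-gated and 23.6 in CCR9-gated cells, so that 54.8% of its CCR7-gated UMIs, and all but 28 of the 140 CCR9-gated UMIs, lay in the cells left out. *GZMK* was less affected, at 126 and 61.6 CPM, but 2 cells held 43 and 24 of its 87 CCR9-gated UMIs. Co-detection in CCR7-gated cells was above the product also without them, with 16 cells against 3.76 for *GZMB* with *GZMK* and 36 against 4.24 for *GZMK* with *GZMM*. The part of doublets in these values was not tested. In CX3CR1-gated cells 4.49% were among the highest scores and *GZMB* without them was 3944 CPM, and in EOMES-gated cells 7.10% were, with *GZMK* at 1784 CPM. The share was largest in cells with several gate genes, at 14.1%, and 35.4% of that set's *GZMB* UMIs lay in the cells left out. Its *GZMB* level was 708 CPM with them and 564 CPM without them.

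**Figure D4:**
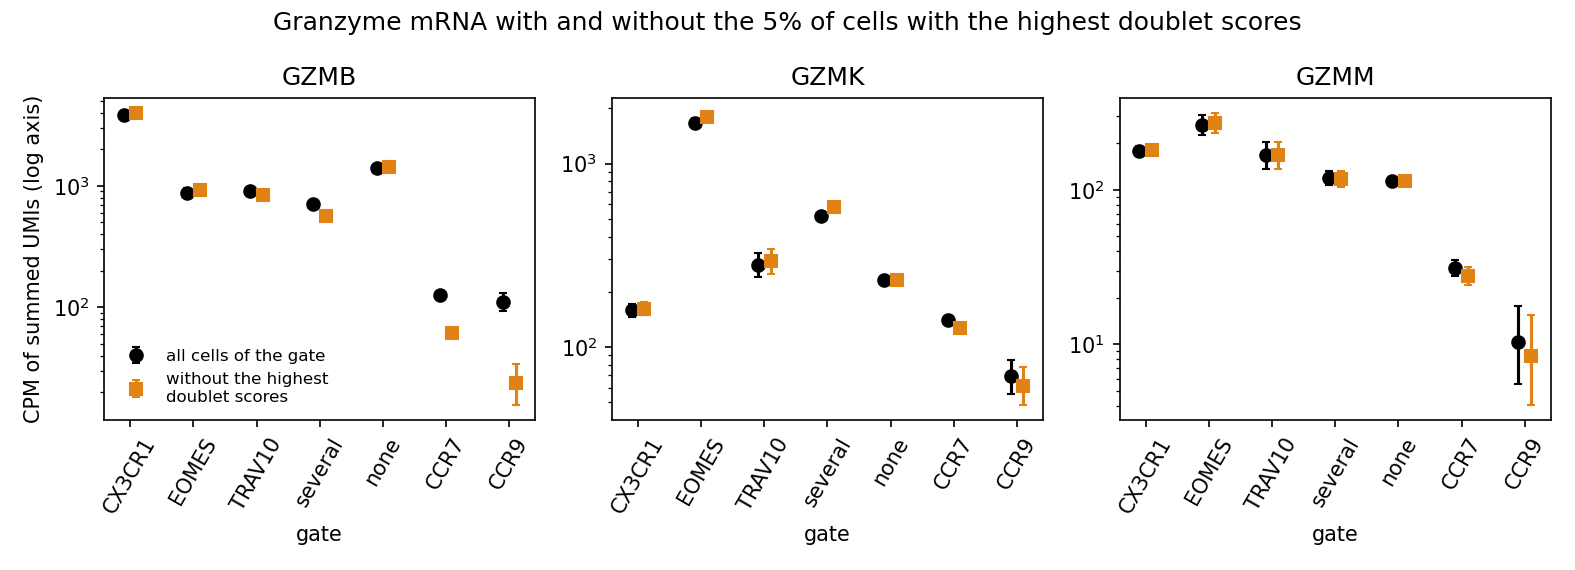
*GZMB*, *GZMK* and *GZMM* levels in CPM of summed UMIs (log axis) in each gate, with all cells and without the 5% of cells scored highest for doublets, with exact Poisson intervals. *GZMB* fell from 126 to 61.9 CPM in CCR7-gated and from 111 to 23.6 CPM in CCR9-gated cells. The granzymes were among the genes given to the score.

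The CD8 tag divided the T cells into 4 bins of equal size, at 12 to 191, 192 to 339, 340 to 570 and 571 to 32200 tag UMIs. *GZMK* was 361, 323, 206 and 165 CPM from the lowest to the highest bin, a log2 difference between the outer bins of -1.13 (-1.23 to -1.04). *GZMB* was 1056, 1550, 1555 and 907 CPM, highest in the middle bins, and *GZMM* was 102, 126, 99.1 and 85.7 CPM. Median RNA depth was 3346, 3439.5, 3611 and 4570 UMIs over the bins, and cells with several gate genes made up 4.86% of the lowest and 12.1% of the highest. By the 2-fold rule 0.0695% of genes were higher and 0.0795% lower in the highest bin than in the lowest, with *GZMK* the only granzyme among the lower ones. The 3 granzymes' median log2 difference was -0.22, against 0.00 for all 10067 genes, and 0 of the 17 granule genes and 0 of the 11 regulators passed.

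The result for *GZMB* depended on how the tag was scaled. Binned by the CD8 tag as a share of both tags, which removes differences in total tag between cells, *GZMB* was 649.8, 1472, 1295 and 1492 CPM, and the outer bins differed by a log2 of 1.20 (1.15 to 1.25) instead of -0.22. The share also rises where the CD4 tag is low, and the median CD4 tag over these bins was 418, 392, 390 and 320 UMIs. By gate it was 298 in CX3CR1-gated and 426 in CCR7-gated cells. The part of each tag in the *GZMB* difference was not tested. CX3CR1-gated cells were 8.002% of the lowest and 18.2% of the highest bin by this share, and CCR7-gated cells 32.0% and 20.3%. *GZMK* kept its direction, with 389.9, 295, 169.8 and 169.8 CPM and a log2 difference of -1.20 (-1.29 to -1.11).

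*GZMK* was also lower above than below the median CD8 tag of 339 UMIs in each of the 7 sets of T cells. It was 1322 against 1989 CPM in EOMES-gated, 128 against 192 in CX3CR1-gated, 212 against 421 in TRAV10-gated, 89.8 against 214 in CCR7-gated and 19.9 against 156 in CCR9-gated cells. The log2 difference ran from -0.59 in EOMES- and CX3CR1-gated to -2.97 in CCR9-gated cells, where 2 cells held most of the UMIs. The same direction was found in all 7 sets with the tag as a share and without the highest doublet scores. *GZMB* differed the other way in 5 of the 7 sets, with log2 differences of 0.40 in EOMES-gated, 1.25 in TRAV10-gated, 1.71 in CCR7-gated, 3.93 in CCR9-gated and 0.87 in cells with several gate genes, against -0.01 (-0.05 to 0.04) in CX3CR1-gated and -0.09 in cells with no gate gene. The CCR9-gated value came from 135 against 5 UMIs. With the same tag UMIs but without the highest doublet scores it was 1.52 (0.09 to 3.27), and the CCR7-gated value was 1.79. Cells above the median tag were deeper in all 7 sets, with medians of 4784 against 3786 UMIs in CCR7-gated cells. In cells with several gate genes they were 5653 against 3820.5 UMIs. With the tag as a share, *GZMB* was higher above the median in all 7 sets, by 0.07 in CX3CR1-gated, 0.21 (-0.03 to 0.44) in EOMES-gated, 1.38 in TRAV10-gated, 0.60 in CCR7-gated, 1.11 in CCR9-gated, 0.59 in cells with several gate genes and 0.51 in cells with none. Without the highest doublet scores as well, the 7 values ran from 0.07 (-0.18 to 0.31) in EOMES-gated to 1.94 in CCR9-gated cells, with 0.25 (-0.01 to 0.52) in CCR7-gated cells.

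**Figure D5:**
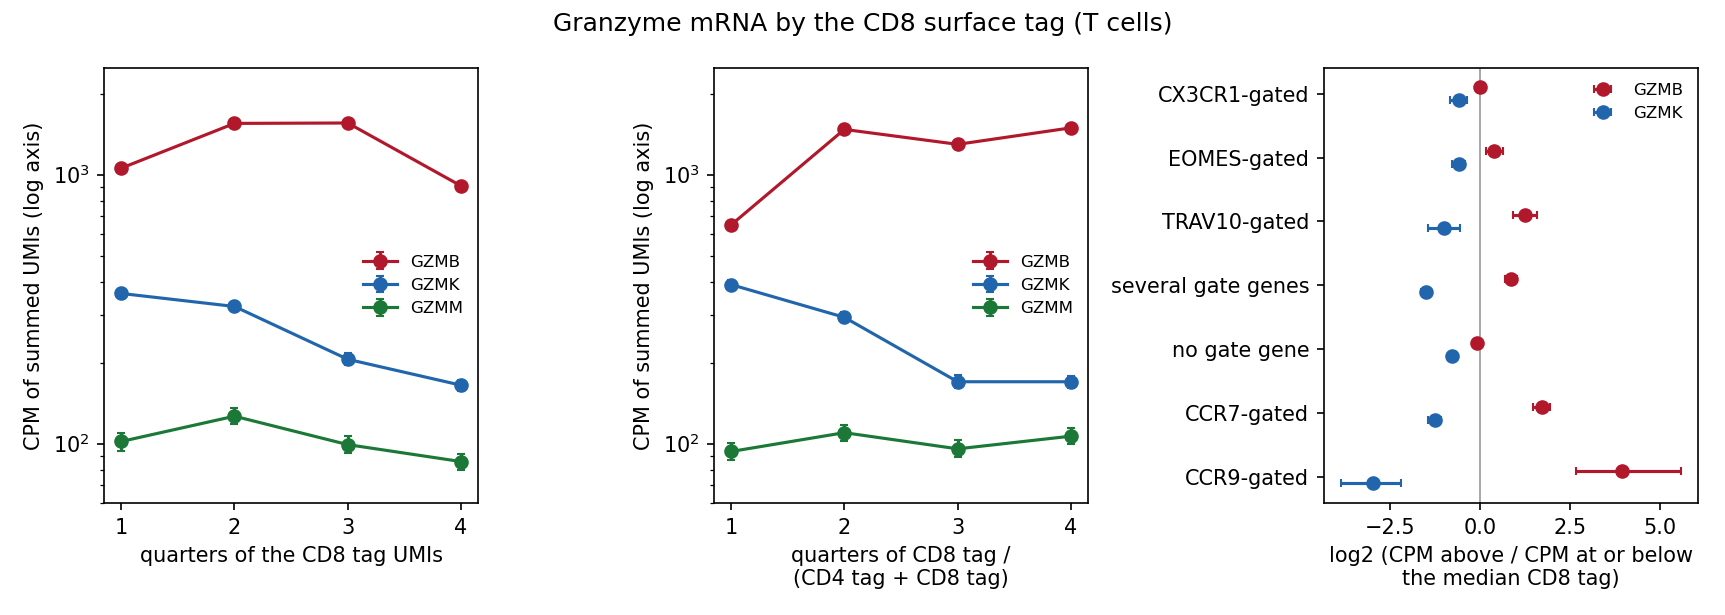
*GZMB*, *GZMK* and *GZMM* levels in CPM of summed UMIs in T cells divided into 4 equal bins from the lowest to the highest CD8 tag, with the tag as UMIs (left) and as a share of both tags (middle), and the log2 ratio of cells above to cells at or below the median tag in each set (right), with exact intervals. *GZMK* was lower in the highest than in the lowest bin by both, at 165 against 361 and 169.8 against 389.9 CPM, whereas *GZMB* changed its direction.

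The genes whose levels across cells were most like each granzyme were named by Pearson's r of log values over the 7011 thinned cells and 8852 genes, a description in which all points share 1 library. For *GZMB* they were *NKG7* (0.74), *CST7* (0.66), the calcium-binding protein gene *S100A4* (0.58), the adaptor gene *HCST* (0.58) and *S100A10* (0.56), and the lowest r was that of *LTB*, a lymphotoxin gene (-0.61). For *GZMK* they were *EOMES* (0.37), *CST7* (0.25), *NKG7* (0.23), *IL2RB*, a chain of the interleukin receptor (0.21), and ENSMMUG00000064120 (0.21). For *GZMM* they were *NKG7* (0.30), *CST7* (0.29), *HCST* (0.25), ENSMMUG00000064120 (0.23) and *GNLY* (0.22). Among the granzymes r was 0.01 for *GZMB* with *GZMK*, 0.21 for *GZMB* with *GZMM* and 0.24 for *GZMK* with *GZMM*. *GZMB* and *GZMK* thus shared *NKG7* and *CST7* among their most similar genes while their own r lay near 0.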

How the data were processed

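The deposited counts were raw UMI counts per gene or antibody tag and cell barcode, which the authors made on the Mmul_10 build with STAR 2.5.1b in Cell Ranger 3.1.0, with Seurat 3.1.3 named for later steps. Which annotation release was used is not given in the sources read. The other deposited files held feature names and barcodes, and no cell annotation was used.

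Of 7923 barcodes, 7601 with 200 to 4000 genes and under 20% mitochondrial UMIs were kept, and genes in at least 3 cells. Levels are CPM of UMIs summed over cells with exact Poisson 95% intervals, shares have Clopper-Pearson intervals, and ratios have exact binomial intervals. The ratio intervals, the 2-fold rule and the thinning were tested on simulated Poisson counts. For the ratios these were drawn as pools, without UMIs clumped in cells. The Poisson and Clopper-Pearson intervals were not tested on simulated data. UMIs of 1 cell are not independent, and cells are not replicates. For shares and co-detection, 434 shallower T cells were left out by thinning to 2000 UMIs. Doublets were scored with Scrublet (scanpy 1.11.5), and 0 cells were recorded as marked by its own threshold. The same 0 would be recorded if it had set no threshold. No cell was removed, and the 380 cells with the highest scores were left out as an alternative. Python 3.11.15, numpy 2.4.6, scipy 1.17.1 and pandas 2.3.3 were used.

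The granzymes, gates and gene lists were chosen with earlier results of these data known. Named genes were the granzymes, gate genes, 17 granule genes, 12 regulators (no feature was named *ZNF683*), markers of other cell types and the 5 genes with the highest r for each granzyme. B cell markers summed to 213 CPM in cells with several gate genes, the highest sum among the sets of T cells. They summed to 143 CPM in CCR7-gated and 21.9 CPM in CX3CR1-gated cells. Monocyte markers summed to at most 8.04 CPM in any set of T cells, and red cell genes to 139 CPM in CX3CR1-gated cells and 517 CPM in cells with no gate gene. The start region of *GZMK* is not reported here.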

Additional observations from a re-analysis of the deposited data

How the results depend on the processing

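No paired analysis was possible because the data are 1 sample with no replicate numbers between groups. Of 63 alternatives to the log2 ratios, 37 stayed within the interval of the value reported, 25 moved past it with the same sign and 1 changed direction, and the cause was not tested. The sign is that of the value alone, and some that moved had intervals that held 0. Among them were *GZMB* in TRAV10-gated cells above both tag levels (-0.17 to 0.10) and *GZMB* with *GZMK* at 2 UMIs of each (-0.06 to 0.27). Wide intervals, as for *GZMA*, made it easy to stay within. With *CX3CR1* gated at 2 UMIs, *GZMB* was 1.93, and with gates that may overlap 2.10 for *GZMB* in CX3CR1-gated and 3.19 for *GZMK* in EOMES-gated cells. Against cells with no gate gene, the CX3CR1-gated values were 1.45 (*GZMB*) and 0.63 (*GZMM*) and *GZMB* in TRAV10-gated cells was -0.63. With means of the cells' own CPM, the values were 1.95 and 0.82 in CX3CR1-gated cells, 2.81 for *GZMK* in EOMES-gated, -0.60 for *GZMB* in TRAV10-gated cells and -0.14 for *GZMB* by CD8 tag. Among cells above both tag levels they were 2.27, 1.15, 3.31 and -0.036 for *GZMB* and *GZMM* in CX3CR1-gated, *GZMK* in EOMES-gated and *GZMB* in TRAV10-gated cells, and 0.57 for *GZMB* with *GZMK*. Without the highest doublet scores, *GZMB* in CX3CR1-gated cells was 2.27 and *GZMK* in EOMES-gated cells 3.04. By CD8 tag, *GZMB* was 1.20 with the tag as a share (changed direction), -0.14 above against below the B gene cells' level and -0.28 among cells above the CD4 tag level. *GZMB* with *GZMK* was 0.22 at 1000 UMIs, 0.11 at 2 UMIs of each and 0.13 at 3 UMIs unthinned, and *GZMA* with *GZMK* was 3.28 and 3.20 at the same limits, from 1 cell each. *GZMA* with *GZMB* gave no value there, since 0 cells had both. With 1 CPM added in place of 10, the shares of genes at least 2-fold higher and lower were 3.32% and 5.65% (CX3CR1), 2.08% and 7.94% (EOMES), 1.96% and 9.67% (TRAV10), 1.53% and 4.29% (CCR7), 1.51% and 7.15% (CCR9), and 0.695% and 0.407% (CD8 tag). Leaving out the highest doublet scores for CCR7- and CCR9-gated levels, cells with *CX3CR1* and *EOMES*, and co-detection, and taking the tag as a share for *GZMK* and *GZMM* and within gates, were chosen after seeing the data. *GZMA*, with 38 UMIs, gave the widest intervals among the gate ratios.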

Other observations

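Of the 86 B gene cells 7 had a *GZMB* UMI, 5 of them a single one. The other 2 had 147 and 111 *GZMB* UMIs of 14389 and 7940 in total, more than any CX3CR1-gated cell, whose highest was 63. Other T cells came near them, with 146 and 107 UMIs in the 2 highest cells with no gate gene. The 2 B gene cells each had 6 UMIs of *CD79A* and 0 of the other 5 B cell genes. They thus counted as B gene cells through *CD79A* alone. They also had 28 and 25 UMIs of *IRF8* and 7 and 14 of *IRF7*, which encode interferon regulatory factors, and 11 and 46 of *JCHAIN*. *SPIB* had 5 and 6 UMIs, *TCF4* 5 and 1, *MZB1* 4 and 4 and *PTPRS* 1 and 2, and *PRF1*, *NKG7*, *GZMK* and *GZMM* had 0. The other 84 had 1656 CPM of *CD79A*, 112 of *IRF8*, 29.4 of *IRF7*, 216 of *SPIB* and 219 of *TCF4*. The cell type of the 2 cells was not tested. These cells were named after their values were seen.

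EOMES-gated cells kept a high *GZMK* level whether or not they had *GZMB*. *GZMK* was 1208 CPM in those with 10 or more *GZMB* UMIs, 1799 in those with 1 to 9 and 1721 in those with none. *CCL5* was 659, 753 and 318 CPM over the same cells and *TBX21* 29.9, 21.6 and 2.86 CPM. *TBX21* had only 9 UMIs in all 183 EOMES-gated cells, of which 12.6% had 10 or more *GZMB* UMIs, so its order over these cells rests on few counts. Within the 158 TRAV10-gated cells, the 11.4% with 10 or more *GZMB* UMIs had 124 CPM of *GZMK* and 647 of *CCL5*, and the others 303 and 77.2 CPM. These divisions were also chosen after the values were seen.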
